A study of Homo sapiens with 12 samples.

Results

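The 36 genes described here encode proteins that take a cell through G2 and mitosis, together with Ki-67 and FOXM1. They were chosen by name as a list, with earlier results of these data known. All 36 were found by symbol among the 26485 genes of the count table. All of them were also among the 15206 genes that passed the filter on low counts, and the lowest count of any of them in any library was 243 reads. The RNA came from RD, an established cell line of human rhabdomyosarcoma, a tumour with features of skeletal muscle. Every culture carried a hairpin, switched on by doxycycline, that targets NT5E, which encodes the cell-surface enzyme CD73, in one of a pair of constructs named ish2 and ish. The 4 groups, with 3 libraries each, were ish2 cells given 10 ng/mL doxycycline (Dox) for 96 h, ish2 cells without Dox, ish cells given the same dose for the same time, and ish cells without Dox. In each group 500000 cells had been seeded and left to attach for 24 h. Controls therefore carried the construct too and lacked only the Dox. A non-targeting hairpin given Dox was not among the samples analysed here, and effects of the drug, of the hairpin and of lower NT5E cannot be told apart. The labels do not state whether replicates were separate cultures or whether a line was 1 clone, so p-values measure the spread between these libraries, which may be technical.

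Mitosis is driven by CDK1 bound to cyclin B. PLK1 and the Aurora kinases then drive centrosome separation, spindle assembly and cytokinesis, while the kinetochore and its checkpoint proteins hold anaphase back until every chromosome is attached. The anaphase promoting complex ends this wait by marking securin and cyclin B for destruction. Most of these genes are transcribed mainly in G2 and M phase. Their promoters are known for the cell cycle genes homology region (CHR), to which the MuvB core binds, and for CCAAT boxes, to which NF-Y binds. MuvB is part of the repressive DREAM complex in resting cells, and works with MYBL2 and FOXM1 in dividing cells. In muscle lineages, leaving the cell cycle goes with differentiation, and the mRNA of mitotic genes is known to be low in differentiated muscle.

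Libraries held 26566603 to 32692207 reads assigned to genes. Levels are given as CPM, counts per 1000000 counts of the library, with library sizes adjusted by TMM. NT5E had 14.5, 15.2 and 14.1 CPM with Dox, against 24.1, 23.5 and 22.1 CPM without Dox in ish2, and 1.94, 1.23 and 1.54 CPM with Dox, against 14.9, 18.0 and 17.3 CPM without Dox in ish. The NT5E log2 fold change was -0.67 (SE 0.065) in ish2 and -3.41 (SE 0.107) in ish, and groups did not overlap in either construct (exact two-sided permutation p = 0.1 in each, the smallest that 3 against 3 can give). Muscle genes were present, among them DES at 297 to 553 CPM and MYOD1 at 107 to 345 CPM, while MYF5 was at or near 0. PTPRC, CD3E, CDH5, KDR, KRT5 and KRT19, which mark immune, endothelial and epithelial cells, did not exceed 0.113 CPM in any library. Other markers of those cells were higher, among them TEK at up to 10.7 CPM, CLDN5 at up to 4.89 CPM, CD68 at up to 3.67 CPM, CLDN4 at up to 1.71 CPM and CD14 at up to 1.34 CPM. Replicate 3 of ish2 without Dox lay furthest from its fellow replicates (chi-square per degree of freedom 3.58 and 4.04, against 1.33 to 2.62 for the other pairs). That library was also the highest of its group for 32 of the 36 genes, a share not counted over all genes tested. Without that library, the median log2 fold change of the 36 genes in ish2 was -0.37, against -0.40 with all libraries.

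Mitosis genes fell in both constructs, by more in ish. In ish2, 32 of the 36 fell, none rose and 4 were not called, whereas 65% of all genes tested were called, 31.1% lower and 33.9% higher (edgeR, adjusted p under 0.05). In ish, all 36 fell, and 78.6% of all genes tested were called, 39.5% lower and 39.1% higher. The 32 that fell in both constructs stand beside 14.1% of all genes tested. The median log2 fold change of the 36 was -0.40 in ish2 and -1.05 in ish, beside medians of 0.01 and -0.01 over all genes tested. With Dox the genes kept a median of 75.7% of their level without Dox in ish2 (44.5% to 102.6%), and 48.2% in ish (28.7% to 88.8%). A fall of at least 2-fold was seen for 2 genes in ish2 (MKI67 and NUSAP1), where 2.26% of all genes tested fell that far, and for 20 genes in ish, where 10.5% did. These are levels in bulk RNA, so fewer dividing cells and less of each mRNA per dividing cell cannot be told apart.

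**Figure D1:**
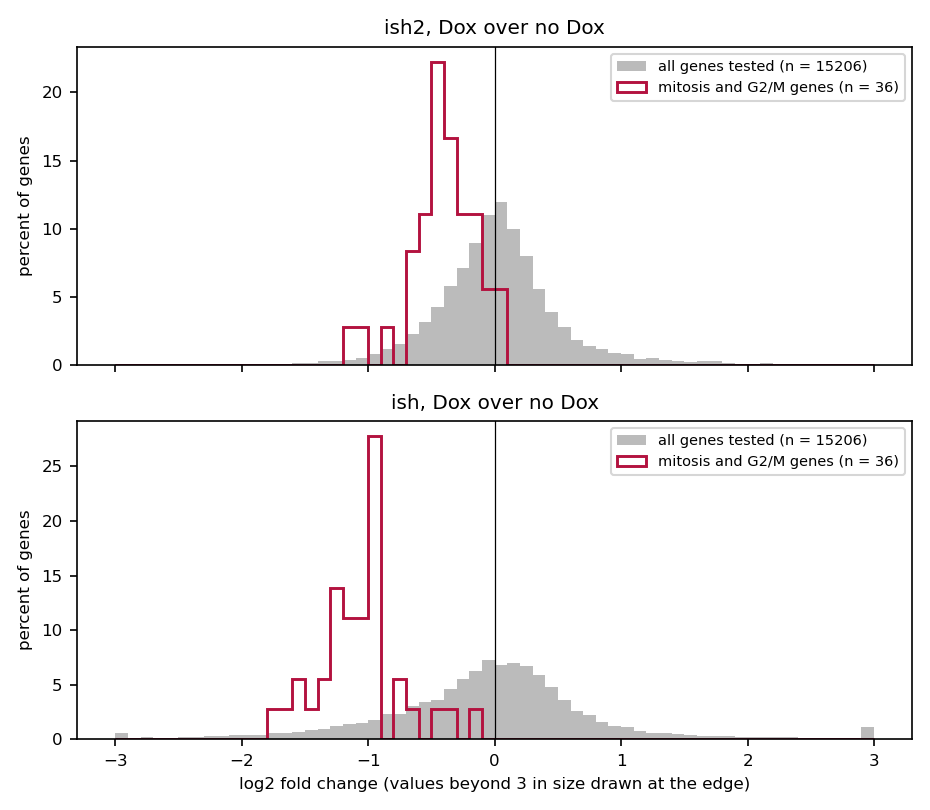
Distribution of log2 fold changes, Dox over no Dox, as the percent of genes in each bin, in ish2 (top) and ish (bottom). The outline is the 36 mitosis and G2/M genes (medians -0.40 in ish2 and -1.05 in ish) and the grey area is all 15206 genes tested.

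Summed over the 36 genes, levels were 4958, 4941 and 4813 CPM in ish2 with Dox, against 6643, 6710 and 7147 CPM in ish2 without Dox. In ish they were 3226, 3182 and 3186 CPM with Dox, against 6628, 6421 and 6417 CPM without Dox. The sums with Dox thus came to 71.8% of the level without Dox in ish2 and to 49.3% in ish, and in each construct every Dox library lay below every library without Dox. Gene by gene, the Dox and no-Dox libraries did not overlap, with Dox lower, for 32 genes in ish2 and for 36 in ish. Over all genes tested the same held for 31.9% in ish2 and 40.6% in ish. Within a group the libraries were close: the median coefficient of variation of a gene was 2.89% in ish2 with Dox, 4.31% in ish2 without Dox, 2.28% in ish with Dox and 2.25% in ish without Dox.

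**Figure D2:**
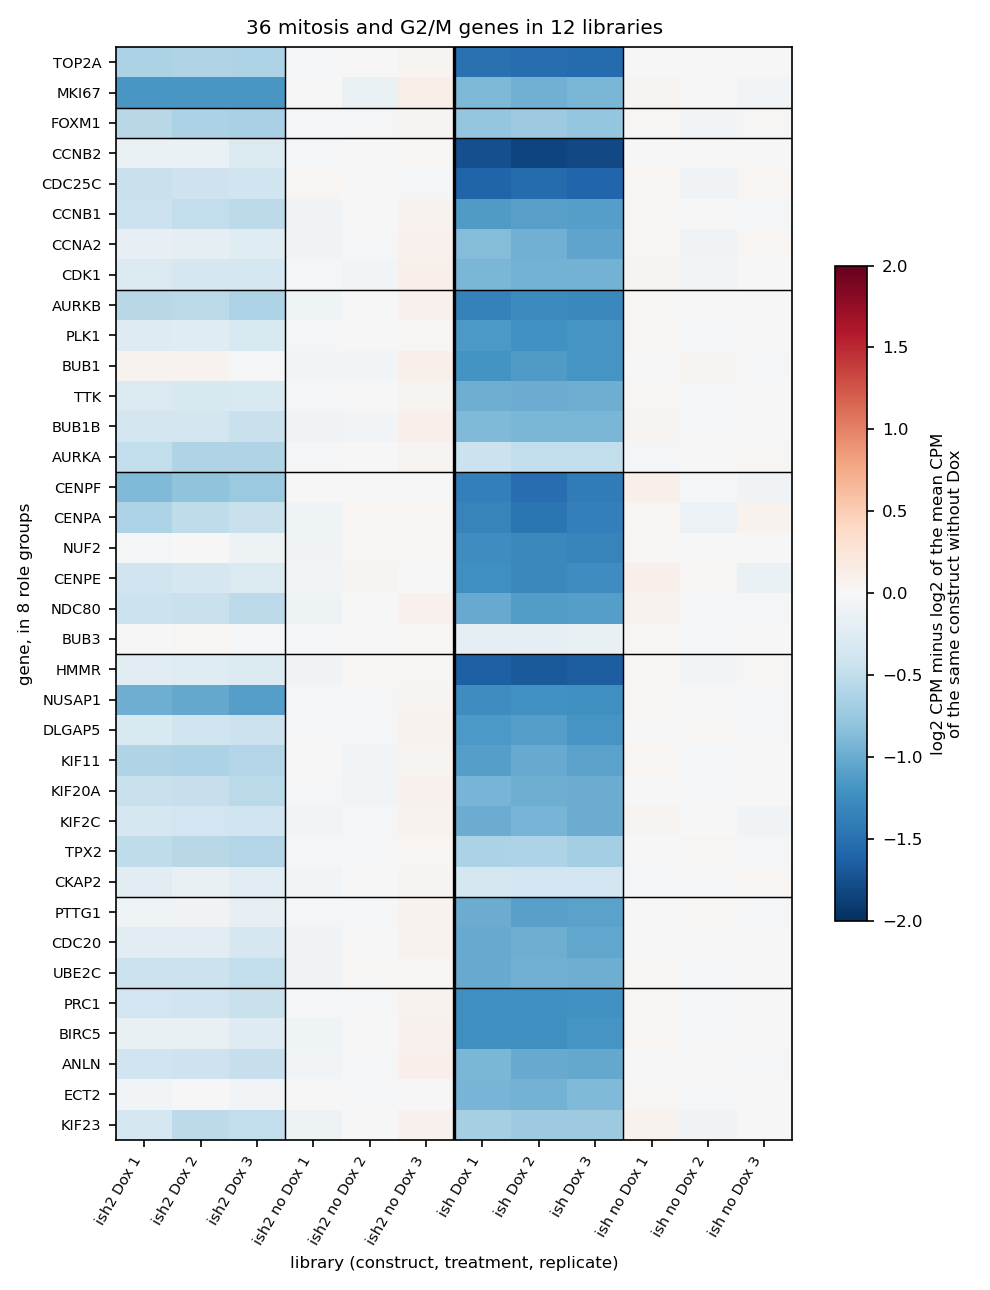
Level of each of the 36 genes in each of the 12 libraries, as log2 CPM minus log2 of the mean CPM of the same construct without Dox (colour scale from -2 to 2), grouped by the 8 roles used in the text. The ish Dox columns are darker than the ish2 Dox columns for most genes, with MKI67 the clearest exception, and BUB1, BUB3, NUF2 and ECT2 stay near the no-Dox colour in ish2.

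Promoters are shown for 8 of the genes described below, 6 with both a CHR and a CCAAT box and 2 with neither, so that the sequence can be set beside the response. Each is the 250 bases before the RefSeq start on GRCh38.p14, read 5′ to 3′ on the strand of the gene. Capitals mark the CHR hexamer (TTTGAA, or TTCAAA on the other strand) and the CCAAT box (CCAAT, or ATTGG on the other strand). The regions are chr17:40417897-40418146 on the minus strand for TOP2A, chr15:90994536-90994785 on the minus strand for PRC1, chr15:59104896-59105145 on the plus strand for CCNB2 and chr5:163460382-163460631 on the plus strand for HMMR. Those of the others, all on the plus strand, are chr16:23678639-23678888 for PLK1, chr3:172750476-172750725 for ECT2, chr1:163321704-163321953 for NUF2 and chr18:2571307-2571556 for NDC80. For all 8, GENCODE gives the gene a start within or upstream of the printed window.
TOP2A: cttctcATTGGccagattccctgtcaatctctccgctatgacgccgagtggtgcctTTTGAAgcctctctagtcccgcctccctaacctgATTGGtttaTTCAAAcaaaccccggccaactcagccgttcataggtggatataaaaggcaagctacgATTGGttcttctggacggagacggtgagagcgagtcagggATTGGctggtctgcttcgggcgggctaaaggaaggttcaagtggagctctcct
PRC1: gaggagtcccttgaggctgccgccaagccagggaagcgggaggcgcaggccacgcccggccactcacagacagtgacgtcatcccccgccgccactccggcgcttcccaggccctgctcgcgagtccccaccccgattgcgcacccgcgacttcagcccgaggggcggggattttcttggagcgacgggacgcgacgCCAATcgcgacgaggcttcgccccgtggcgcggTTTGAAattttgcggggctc
CCNB2: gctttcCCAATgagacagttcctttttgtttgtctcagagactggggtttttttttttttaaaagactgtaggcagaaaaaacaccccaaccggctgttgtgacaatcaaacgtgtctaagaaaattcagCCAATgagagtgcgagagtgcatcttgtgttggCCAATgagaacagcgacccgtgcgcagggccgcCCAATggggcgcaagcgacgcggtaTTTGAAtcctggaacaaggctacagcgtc
HMMR: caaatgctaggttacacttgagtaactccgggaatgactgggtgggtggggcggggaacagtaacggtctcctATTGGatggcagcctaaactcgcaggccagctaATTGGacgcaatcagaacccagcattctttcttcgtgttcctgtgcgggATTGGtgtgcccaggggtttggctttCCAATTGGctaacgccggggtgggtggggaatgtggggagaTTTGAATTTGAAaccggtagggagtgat
PLK1: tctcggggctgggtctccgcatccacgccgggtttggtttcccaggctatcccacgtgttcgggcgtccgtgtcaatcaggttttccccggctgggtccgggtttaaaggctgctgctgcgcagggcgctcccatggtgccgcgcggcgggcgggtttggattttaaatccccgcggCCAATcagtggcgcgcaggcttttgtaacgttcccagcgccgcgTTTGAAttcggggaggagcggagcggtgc
ECT2: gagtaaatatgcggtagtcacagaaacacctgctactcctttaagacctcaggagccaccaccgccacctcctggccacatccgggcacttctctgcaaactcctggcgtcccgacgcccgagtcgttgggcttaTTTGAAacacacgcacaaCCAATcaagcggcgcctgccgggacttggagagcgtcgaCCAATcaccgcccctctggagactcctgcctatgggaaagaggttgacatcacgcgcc
NUF2: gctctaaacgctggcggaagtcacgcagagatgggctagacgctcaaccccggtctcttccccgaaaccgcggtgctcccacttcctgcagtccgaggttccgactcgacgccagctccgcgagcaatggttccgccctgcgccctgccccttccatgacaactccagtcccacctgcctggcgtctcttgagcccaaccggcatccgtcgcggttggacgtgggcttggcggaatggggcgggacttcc
NDC80: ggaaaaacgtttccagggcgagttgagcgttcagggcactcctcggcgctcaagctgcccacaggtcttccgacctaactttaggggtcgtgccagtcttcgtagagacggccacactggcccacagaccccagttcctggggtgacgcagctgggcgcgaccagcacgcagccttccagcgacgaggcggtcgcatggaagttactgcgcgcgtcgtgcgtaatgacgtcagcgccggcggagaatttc

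RefSeq promoters were at hand for 29 of the 36 genes (FOXM1, AURKA, TTK, BUB3, TPX2, UBE2C and BIRC5 were not used). A CHR hexamer on either strand was found in 15 of the 29 (51.7%), compared with 13.6% of all 27305 RefSeq promoters of the same length and 8.41% of the 10969 that belong to genes tested here. At least 1 CCAAT box was found in 21 (72.4%), compared with 33% of all promoters and 34.5% of those of tested genes, and at least 2 in 14 (48.3%), compared with 10% and 12.3%. Both motifs were present in 13 (44.8%), compared with 4.85% and 3.39%. In 9 of the 15 promoters with a CHR, the hexamer lay within 50 bases of the start. CCNB2 holds 3 CCAAT boxes that begin at -120, -87 and -54, 33 bases apart, followed by a CHR at -29. HMMR carries a pair of CHR hexamers end to end, at -28 and -22, and a CCAATTGG stretch that reads as a CCAAT box on each strand and was counted as 2 overlapping boxes, as was one in PTTG1.

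Genes with and without a CHR hexamer in the 250 bases before the start had like median responses. The 15 genes with a match had a median log2 fold change of -0.39 in ish2 and -1.06 in ish. The 14 without a match had -0.40 in ish2 and -1.14 in ish, with no test made. Only the exact hexamer was searched, and only in that window. A CHR spelled or placed otherwise would be missed, so the 14 are not genes known to lack one. NUF2 and NDC80, whose printed windows hold neither motif, both fell in ish, where every gene of the list fell. In ish2 NDC80 fell and NUF2 was not called. ECT2, whose window holds both motifs, fell in ish and was not called in ish2. A match is only a run of letters, and its absence from a window says nothing of binding elsewhere.

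**Figure D3:**
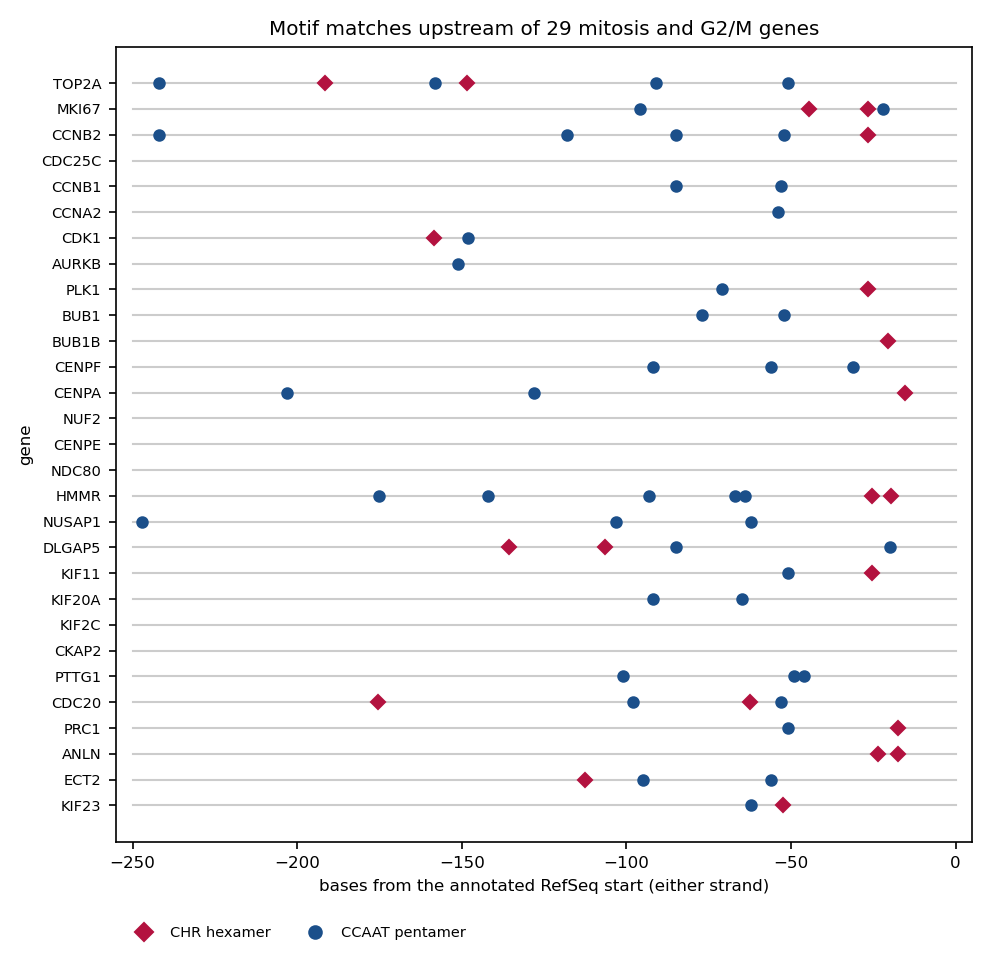
Positions of CHR hexamers (diamonds) and CCAAT boxes (circles), either strand, in the 250 bases upstream of the RefSeq start of 29 mitosis and G2/M genes, with distance from the start in bases on the x axis. CHR hexamers lie within 50 bases of the start in 9 of the 15 genes that have any, and 6 genes have neither motif.

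Ki-67, the proliferation marker that coats mitotic chromosomes, is encoded by MKI67 (chromosome 10, 128096659 to 128126385, minus strand), and DNA topoisomerase II alpha, which untangles sister chromatids, by TOP2A (chromosome 17, 40388516 to 40417950, minus strand). MKI67 is described here because of its values: by the test of the difference it was the 1 gene of the list that fell more in ish2 than in ish. MKI67 had 292, 293 and 292 CPM with Dox, against 655, 596 and 719 CPM without Dox in ish2. The ish libraries had 312, 300.0 and 311 CPM with Dox, against 606, 583 and 565 CPM without Dox. The Dox groups lay clear of the no-Dox groups in both constructs, and the ish2 Dox libraries were slightly below the ish Dox libraries. The log2 fold change of MKI67 was -1.17 (SE 0.058, adjusted p = 1.94e-08) in ish2 and -0.93 (SE 0.058, adjusted p = 7.57e-08) in ish. TOP2A, in contrast, had 568, 579 and 573 CPM with Dox, against 853, 871 and 914 CPM without Dox in ish2, and 305, 299.6 and 297 CPM with Dox, against 869.5, 855 and 859 CPM without Dox in ish. Its ish Dox libraries were the lowest and its ish2 Dox libraries intermediate, with no overlap. The TOP2A log2 fold change was -0.62 (SE 0.025, edgeR adjusted p = 9.26e-22) in ish2 and -1.52 (SE 0.026, adjusted p = 3.89e-34) in ish.

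FOXM1, the forkhead transcription factor of G2/M genes (chromosome 12, 2857681 to 2877155, minus strand), fell by nearly the same amount in both constructs. FOXM1 had 113, 108 and 106 CPM with Dox, against 163, 164 and 174 CPM without Dox in ish2. In ish it had 85.1, 88.3 and 85.3 CPM with Dox, against 149, 139.9 and 149 CPM without Dox. Groups did not overlap in either construct. The log2 fold change was -0.61 (SE 0.032) in ish2 and -0.76 (SE 0.032) in ish, and the gap between these effects, 0.14, was among the smallest of the list though it passed the test (edgeR adjusted p = 0.00505).

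Of the cyclins, CDK1 and its activator, all 5 genes fell in both constructs. Their summed level with Dox was 78.0% of that without Dox in ish2 and 46.3% in ish. CCNB2, the B-type cyclin found at the Golgi (chromosome 15, 59105078 to 59125045, plus strand), had 49.7, 49.6 and 44.8 CPM with Dox, against 53.4, 54.9 and 55.5 CPM without Dox in ish2. In ish it had 15.8, 15.1 and 15.3 CPM with Dox, against 53.2, 53.4 and 54.0 CPM without Dox. The ish Dox libraries stood far below all others, while the ish2 Dox libraries were just below their no-Dox libraries. This gave CCNB2 the largest gap between the constructs in the list, with log2 fold changes of -0.19 (SE 0.040, edgeR adjusted p = 9.56e-05) in ish2 and -1.80 (SE 0.046, adjusted p = 1.53e-28) in ish. CCNB1, the main mitotic cyclin (chromosome 5, 69167010 to 69178245, plus strand), had 178, 169 and 166 CPM with Dox, against 229, 237 and 251 CPM without Dox in ish2. Its ish libraries had 108, 112 and 110.0 CPM with Dox, against 241, 234 and 234 CPM without Dox. Groups did not overlap, and the log2 fold change was -0.48 in ish2 and -1.10 in ish. Among the remaining 3, CDC25C, the phosphatase that activates CDK1, changed by -0.42 in ish2 and -1.58 in ish, CCNA2, the cyclin of S and G2 phase, by -0.20 and -0.96 in the same order, and CDK1 itself by -0.33 and -0.94.

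Mitotic kinases fell as a group in ish, 6 of 6, and 5 of 6 fell in ish2. BUB1, the checkpoint kinase that marks centromeric chromatin (chromosome 2, 110637698 to 110678114, minus strand), was the exception. BUB1 had 139, 139 and 127 CPM with Dox, against 127, 127 and 141 CPM without Dox in ish2. In ish it had 55.1, 57.7 and 55.9 CPM with Dox, against 125, 131 and 123 CPM without Dox. The ish2 groups overlapped and the ish groups did not. The log2 fold change of BUB1 was 0.04 (SE 0.038, edgeR adjusted p = 0.413) in ish2 and -1.17 (SE 0.041) in ish. PLK1, the Polo-like kinase of centrosome maturation (chromosome 16, 23677656 to 23690367, plus strand), had 119, 120.0 and 115 CPM with Dox, against 138, 141 and 146 CPM without Dox in ish2. In ish PLK1 had 59.9, 57.2 and 58.2 CPM with Dox, against 134, 129 and 133 CPM without Dox. Every Dox library was below every no-Dox library of its construct, and the log2 fold change was -0.27 in ish2 and -1.18 in ish.

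AURKA, the centrosomal Aurora kinase (chromosome 20, 56369389 to 56392337, minus strand), was the 1 gene of the 36 whose effects were not called different between the constructs. AURKA had 109, 101 and 101 CPM with Dox, against 149, 152 and 159 CPM without Dox in ish2, and 106, 101 and 101 CPM with Dox, against 141, 143 and 144 CPM without Dox in ish. Groups did not overlap in either construct. Its log2 fold change was -0.56 (SE 0.032) in ish2 and -0.47 (SE 0.031) in ish, a difference of -0.09 (SE 0.044, edgeR adjusted p = 0.0672). This difference was called when replicate 1 of ish2 with Dox, replicate 1 of ish2 without Dox, or replicate 2 or 3 of ish with Dox was left out (adjusted p 0.00943 to 0.044). AURKB, the Aurora kinase of the chromosomal passenger complex, changed by -0.57 in ish2 and -1.30 in ish. TTK, the kinase MPS1 that starts checkpoint signalling, changed by -0.31 in ish2 and -0.98 in ish, and BUB1B, which encodes the checkpoint protein BUBR1, by -0.39 and -0.90 in that order.

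**Figure D4:**
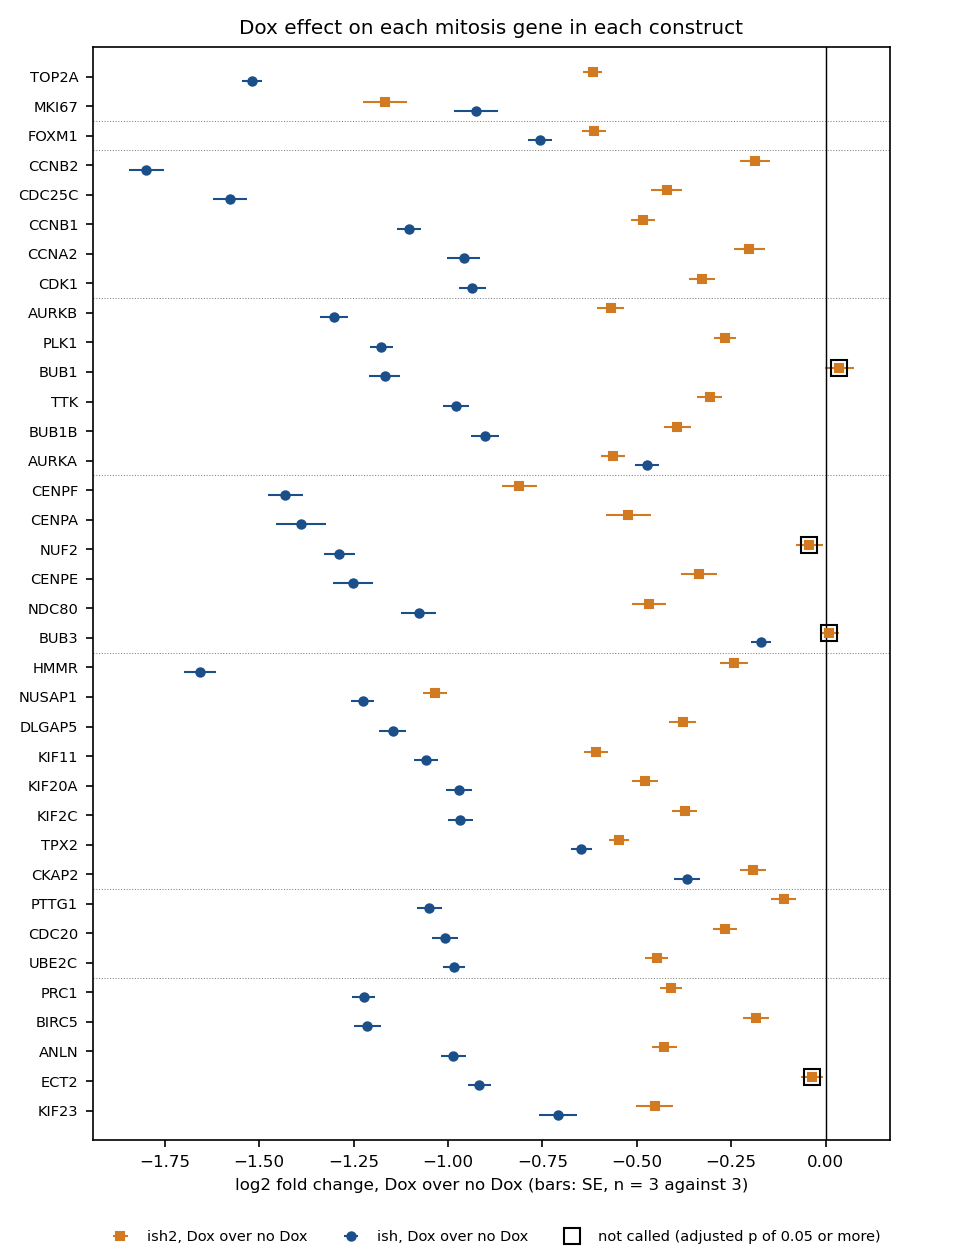
Log2 fold change of each gene, Dox over no Dox, in ish2 (squares) and ish (circles), with SE as bars and n = 3 against 3. Boxes mark BUB1, NUF2, BUB3 and ECT2 in ish2, which were not called, and MKI67 and AURKA are the 2 genes whose ish2 point lies to the left of their ish point.

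At the kinetochore and centromere, 4 of 6 genes fell in ish2 and 6 of 6 in ish. NUF2 and NDC80 encode partner subunits of the NDC80 complex, which grips spindle microtubules, and in ish2 NDC80 fell while NUF2 was not called. NUF2 (chromosome 1, 163266576 to 163355764, plus strand) had 64.8, 65.2 and 61.6 CPM with Dox, against 63.0, 66.9 and 67.4 CPM without Dox in ish2. In ish NUF2 had 27.6, 26.6 and 25.6 CPM with Dox, against 65.7, 64.5 and 64.4 CPM without Dox. Its ish2 groups overlapped and its ish groups did not, with log2 fold changes of -0.04 (SE 0.036, edgeR adjusted p = 0.302) in ish2 and -1.29 (SE 0.040) in ish. NDC80 (chromosome 18, 2571511 to 2616635, plus strand) had 47.2, 46.6 and 43.9 CPM with Dox, against 59.1, 64.1 and 67.2 CPM without Dox in ish2, and 28.8, 26.7 and 27.1 CPM with Dox, against 60.9, 56.4 and 57.2 CPM without Dox in ish. Here the Dox libraries lay below the no-Dox libraries in both constructs, and the log2 fold change was -0.47 in ish2 and -1.08 in ish. Whether NUF2 and NDC80 differed from each other in ish2 was not tested.

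BUB3, a checkpoint protein that also binds BUB1 and BUBR1 (chromosome 10, 123154277 to 123170467, plus strand), moved least of the 36. BUB3 had 307, 316 and 303 CPM with Dox, against 299, 306 and 313 CPM without Dox in ish2. In ish BUB3 had 267, 265 and 274 CPM with Dox, against 308, 296 and 304 CPM without Dox. The ish2 groups overlapped, and in ish the Dox libraries were lower by a small margin with no overlap. Its log2 fold change was 0.01 (SE 0.026, edgeR adjusted p = 0.75) in ish2 and -0.17 (SE 0.026, adjusted p = 3.91e-07) in ish. The others of this role fell in both constructs. CENPF, an outer kinetochore protein, changed by -0.81 in ish2 and -1.43 in ish. CENPA, the histone H3 variant of centromeres, changed by -0.52 in ish2 and -1.39 in ish, and CENPE, the kinetochore kinesin, by -0.34 and -1.25 in that order.

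All 8 spindle motors and microtubule-associated proteins fell in both constructs. NUSAP1, which bundles spindle microtubules near chromatin (chromosome 15, 41332694 to 41381050, plus strand), was 1 of the 2 genes past 2-fold in ish2. NUSAP1 had 116, 111 and 106 CPM with Dox, against 220.5, 223 and 237 CPM without Dox in ish2. In ish it had 89.2, 90.5 and 89.9 CPM with Dox, against 214, 211 and 206 CPM without Dox. Groups were far apart in both constructs, with log2 fold changes of -1.03 (SE 0.031, edgeR adjusted p = 1.18e-25) in ish2 and -1.23 (SE 0.031, adjusted p = 1.13e-28) in ish. HMMR, a hyaluronan-binding protein that also acts in spindle assembly (chromosome 5, 163460203 to 163491945, plus strand), had 55.5, 54.6 and 53.7 CPM with Dox, against 61.4, 66.7 and 65.8 CPM without Dox in ish2. In ish HMMR had 20.0, 19.3 and 19.7 CPM with Dox, against 63.8, 59.6 and 62.7 CPM without Dox. Groups did not overlap in either construct, but the log2 fold change was -0.24 in ish2 and -1.66 in ish, the second largest gap of the list.

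The other spindle genes spanned a wide range. TPX2, which activates AURKA on the spindle, changed by -0.55 in ish2 and -0.65 in ish, and CKAP2, a microtubule stabiliser, by -0.19 and -0.37 in that order. KIF11, the kinesin that pushes spindle poles apart, had log2 fold changes of -0.61 in ish2 and -1.06 in ish. KIF20A, a kinesin of the central spindle, had -0.48 in ish2 and -0.97 in ish. KIF2C, which depolymerises microtubules at kinetochores, had -0.37 in ish2 and -0.97 in ish, and DLGAP5, which stabilises kinetochore fibres, had -0.38 in ish2 and -1.15 in ish.

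The 3 genes of anaphase promotion fell in both constructs. PTTG1, which encodes securin, the inhibitor of separase (chromosome 5, 160421822 to 160428744, plus strand), had 106, 108 and 101 CPM with Dox, against 110.1, 111 and 119 CPM without Dox in ish2. In ish PTTG1 had 61.3, 57.1 and 57.9 CPM with Dox, against 121, 124 and 119.7 CPM without Dox. The ish2 groups came close without overlap and the ish groups were far apart, with log2 fold changes of -0.11 (SE 0.033, edgeR adjusted p = 0.00384) in ish2 and -1.05 (SE 0.034) in ish. UBE2C, the ubiquitin-conjugating enzyme of the anaphase promoting complex (chromosome 20, 45812576 to 45816957, plus strand), had 170.2, 169 and 162 CPM with Dox, against 217, 233 and 234 CPM without Dox in ish2. Its ish libraries had 111, 114 and 113 CPM with Dox, against 229, 218 and 222 CPM without Dox. Groups did not overlap, and UBE2C changed by -0.45 in ish2 and -0.98 in ish. CDC20, the activator of the complex, changed by -0.27 in ish2 and -1.01 in ish.

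In the midzone and cytokinesis group, 4 of 5 genes fell in ish2 and 5 of 5 in ish. ECT2, the exchange factor that activates RhoA for the contractile ring (chromosome 3, 172750682 to 172821474, plus strand), was the gene not called in ish2. ECT2 had 117, 123 and 117 CPM with Dox, against 123, 121 and 123 CPM without Dox in ish2. In ish it had 61.7, 61.2 and 63.7 CPM with Dox, against 119, 116 and 118 CPM without Dox. The ish2 groups overlapped and the ish groups stood apart. The log2 fold change of ECT2 was -0.03 (SE 0.029, edgeR adjusted p = 0.291) in ish2 and -0.92 (SE 0.030) in ish. Without replicate 2 of ish2 with Dox, ECT2 was called lower in ish2 (log2 fold change -0.08, edgeR adjusted p = 0.0403). PRC1, the crosslinker of midzone microtubules (chromosome 15, 90966038 to 90995629, minus strand), had 128, 126 and 122 CPM with Dox, against 163, 162 and 174 CPM without Dox in ish2. In ish PRC1 had 64.9, 64.7 and 65.3 CPM with Dox, against 155, 149 and 151 CPM without Dox. Its groups did not overlap, with -0.41 in ish2 and -1.22 in ish on the log2 scale. BIRC5, which encodes the passenger protein survivin, changed by -0.18 in ish2 and -1.21 in ish. ANLN, the scaffold of the contractile ring, changed by -0.43 and -0.99 in that order, and KIF23, the kinesin of the centralspindlin complex, by -0.45 and -0.71.

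The constructs differed in how far these genes fell. By the test of the difference itself (effect in ish2 minus effect in ish), 34 genes fell more in ish, 1 fell more in ish2 and 1 was not called, whereas 72.6% of all genes tested were called, 37.4% in the positive direction and 35.2% in the negative. The median difference was 0.65 on the log2 scale, from -0.24 for MKI67 (SE 0.081, edgeR adjusted p = 0.0222) to 1.61 for CCNB2 (SE 0.062, adjusted p = 5.04e-23), beside a median of 0.01 over all genes tested. The call for TPX2 (a difference of 0.10) was lost when replicate 1 of ish2 with Dox, replicate 1 or 2 of ish2 without Dox, replicate 3 of ish with Dox or replicate 2 of ish without Dox was left out (edgeR adjusted p 0.0512 to 0.101). The order of the genes was not shared: across the 36 genes, the effects in ish2 and ish had a Spearman correlation of 0.046 and a Pearson correlation of 0.087, given as a description. Across all genes tested the Spearman correlation was -0.013. Genes of 1 library share its depth and scaling, so the genes are not independent points. NT5E mRNA kept a larger share of its level with Dox in ish2 than in ish, and its part in the gap between the constructs was not tested.

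Before any Dox the lines were close but not alike. Without Dox, 14 of the 36 genes were higher in ish2 than in ish, 1 was lower and 21 were not called, beside 26.1% of all genes tested, 13.7% higher and 12.4% lower. The median log2 difference was 0.06, and the summed level in ish2 was 105.3% of that in ish. FOXM1 was the furthest apart, by 0.20 (SE 0.031, edgeR adjusted p = 9.37e-06), and PTTG1 was the gene lower in ish2, with a log2 difference of -0.10 (SE 0.032, adjusted p = 0.0209). The PTTG1 call was lost without replicate 1 or 2 of ish2 without Dox or replicate 2 of ish without Dox (edgeR adjusted p 0.0946 to 0.0998). The count of genes called without Dox leaned on single libraries: it was 6 without replicate 3 of ish2 without Dox and 7 without replicate 2 of ish without Dox.

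Per kilobase of exon, levels without Dox spanned a wide range over the 36 genes. Averaged over the no-Dox means of both constructs, UBE2C was highest at 175.4 CPM per kilobase, followed by TOP2A at 151.1, CCNB1 at 109.6, PTTG1 at 102.1 and TPX2 at 100.7. The lowest were CKAP2 at 16.9, CENPA at 15.6 and CENPE at 11.4 CPM per kilobase. Of these 8 genes, TOP2A, CCNB1, PTTG1, CENPA and CENPE fell by at least 2-fold in ish, while UBE2C (-0.98), TPX2 (-0.65) and CKAP2 (-0.37, log2 fold change) fell less.

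Other genes of cell division were read from 8 lists, whose counts stand beside 31.1% of all genes tested called lower and 33.9% called higher in ish2, and 39.5% lower and 39.1% higher in ish. Among 29 further spindle and cytokinesis genes, 26 fell and 2 rose in ish2, and 28 fell and 1 rose in ish, with median log2 fold changes of -0.39 and -1.08 in that order, close to those of the 36. DEPDC1 rose by 0.30 in ish2 (89.4 ± 2.33 CPM with Dox and 72.7 ± 0.410 without, SD, n = 3 each) and changed by -1.74 in ish (19.2 ± 0.389 CPM with Dox and 64.1 ± 2.33 without). KIF15, a spindle kinesin, fell in both, with log2 fold changes of -0.93 in ish2 and -1.27 in ish. Of 35 other kinetochore and centromere genes, 24 fell and 4 rose in ish2, and 31 fell and 4 rose in ish (medians -0.25 and -0.62). MAD2L1, the checkpoint protein MAD2, rose by 0.09 in ish2 (edgeR adjusted p = 0.036) and changed by -1.72 in ish. Its call in ish2 was lost when any 1 library other than replicate 3 of ish2 without Dox was left out (adjusted p 0.0583 to 0.395). SKA2, of the microtubule-binding SKA complex, changed by -0.29 in ish2 and -1.79 in ish, and KNTC1, of the RZZ checkpoint complex, by -0.93 and -1.06.

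Of 16 regulators of mitotic entry, 13 fell and 1 rose in ish2, and all 16 fell in ish (medians -0.31 and -0.70). The riser was WEE1, the kinase that holds CDK1 inactive, with 74.6 ± 1.17 CPM in ish2 with Dox and 56.1 ± 0.640 without, and 21.1 ± 1.79 CPM in ish with Dox and 55.2 ± 2.39 without (SD, n = 3 each). Its log2 fold change was 0.41 (SE 0.039) in ish2 and -1.39 (SE 0.046) in ish. NEK2, a centrosomal kinase, changed by -0.32 in ish2 and -1.63 in ish, and CCNF, a cyclin that serves as an F-box protein, by -0.73 and -1.09. Of 21 condensin, cohesin and separase genes, 17 fell and none rose in ish2, and 18 fell and 1 rose in ish (medians -0.23 and -0.66). Both SMC subunits of condensin were among them: SMC4 changed by -0.41 in ish2 and -1.48 in ish, and SMC2 by -0.66 and -1.20.

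The anaphase promoting complex list was mixed. Of its 17 genes, 7 fell and 3 rose in ish2, and 5 fell and 9 rose in ish, with medians of -0.07 in ish2 and 0.18 in ish. That is 41.2% lower and 17.6% higher in ish2, and 29.4% lower and 52.9% higher in ish. CDC27, a core subunit, changed by -0.08 in ish2 and -1.24 in ish, and FBXO5, which encodes the inhibitor EMI1, by -0.78 and -1.07. Both of these fell in each construct, whereas the list ranged from -0.78 to 0.32 in ish2 and from -1.24 to 0.80 in ish. The 18 DREAM, MuvB and E2F factors counted 12 lower and 2 higher in ish2, and 6 lower and 9 higher in ish (medians -0.31 and 0.11). Here E2F2 changed by -1.32 in ish2 and 0.20 in ish, and E2F3 by 0.09 and -0.83; both encode activating E2F factors, and each was called in opposite directions in the constructs. The E2F3 call in ish2 was lost without replicate 1 or 3 of ish2 with Dox or replicate 2 of ish2 without Dox (edgeR adjusted p 0.0766 to 0.129), and the E2F2 call in ish without replicate 1 of ish with Dox (adjusted p = 0.0782).

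DNA replication genes, which act before mitosis, fell in both constructs. Of 26, 24 fell in ish2 and 23 in ish, none rose, and the medians were -0.47 in each. By the test of the difference, 9 of them fell more in ish (34.6%), 8 fell more in ish2 (30.8%) and 9 were not called. Both shares were slightly below those over all genes tested, 37.4% positive and 35.2% negative. The median difference of -0.02 joins genes that differ in both directions (-0.49 to 0.91). CDT1, a licensing factor, changed by -0.95 in ish2 and -0.94 in ish. GINS2, of the replicative helicase, was the gene of that list with the smallest p for the difference, at -0.46 in ish2 and -1.37 in ish. A CHR hexamer was found in 1 of 23 promoters of this list (4.35%) and a CCAAT box in 65.2%. The CHR share of the mitosis and G2/M genes (51.7%) was nearly matched by the further spindle and cytokinesis genes (48%). It was 35.7% for mitotic entry regulators, 26.3% for condensin, cohesin and separase, and 25% for other kinetochore and centromere genes. DREAM, MuvB and E2F factors had 12.5%, the anaphase promoting complex list 11.8% and inhibitors of cyclin-dependent kinases 0%.

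**Figure D5:**
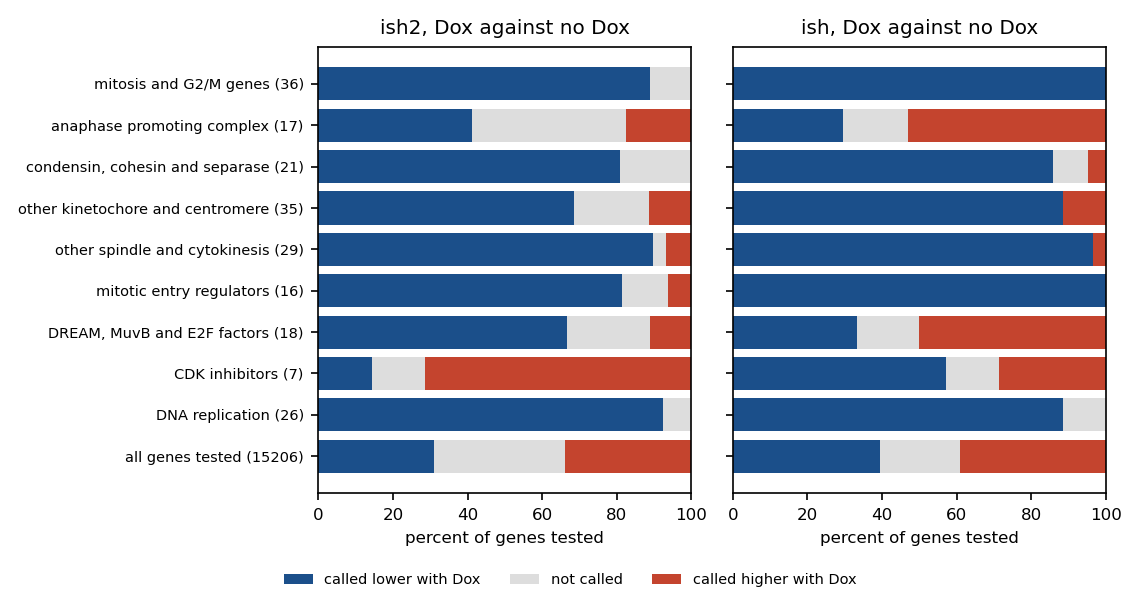
Percent of genes called lower, not called or called higher with Dox (edgeR adjusted p under 0.05) in ish2 (left) and ish (right), for the 36 mitosis and G2/M genes, 8 other lists and all genes tested, with the number of genes tested in parentheses. In ish2 the 36 genes are 88.9% lower and none higher; in ish all are lower, while the anaphase promoting complex and the DREAM, MuvB and E2F lists have more genes higher than lower.

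Of 7 inhibitors of cyclin-dependent kinases, 1 fell and 5 rose in ish2, and 4 fell and 2 rose in ish. The risers are 71.4% of the list in ish2, where 33.9% of all genes tested were called higher, and 28.6% in ish, where 39.1% were. CDKN1A, which encodes p21, had 186, 188 and 200.5 CPM with Dox, against 138, 144 and 122 CPM without Dox in ish2. In ish CDKN1A had 461, 457 and 451 CPM with Dox, against 115, 98.1 and 105 CPM without Dox. Groups did not overlap in either construct, and the log2 fold change was 0.51 (SE 0.068) in ish2 and 2.11 (SE 0.067) in ish. CDKN2A changed by 0.22 in ish2 and -0.88 in ish, and CDKN2C by -0.65 and 0.50. Across the 7 inhibitors the log2 fold change ranged from -0.65 to 0.76 in ish2 and from -2.21 to 2.11 in ish. Muscle genes moved in both constructs. The 7 tested genes of the muscle list summed to 2150, 2114 and 2140 CPM in ish2 with Dox, against 2178, 2205 and 2211 CPM without. In ish the sums were 3424, 3204 and 3339 CPM with Dox, against 2167, 2063 and 2107 CPM without. Of the 7 muscle genes tested, 2 rose (28.6%) and 4 fell (57.1%) in ish2, and 4 rose (57.1%) and 2 fell (28.6%) in ish. MYOG, the regulator of terminal muscle differentiation, averaged 17.6 CPM in ish2 with Dox and 82.9 CPM without, and 654 CPM in ish with Dox and 106 CPM without. The 3 neural markers tested, mostly TUBB3 and MAP2, summed to a mean of 417 CPM in ish2 with Dox and 433 CPM without. In ish they summed to 539.8 CPM with Dox and 378 CPM without. SOX10, at or near 0, was not among them. The 3 endothelial markers tested (VWF, TEK and CLDN5) summed to 10.8 CPM in ish2 with Dox and 11.4 CPM without. In ish they summed to 7.13 CPM with Dox and 10.2 CPM without. The ish sum joins opposite moves: TEK averaged 2.17 CPM with Dox and 9.29 CPM without, and CLDN5 4.68 and 0.625 CPM. The immune genes tested, CD14 and CD68, summed to 4.77 CPM in ish2 with Dox and 3.45 CPM without. In ish they summed to 2.11 CPM with Dox and 3.29 CPM without. The epithelial genes that could be tested came to CLDN4 alone, which averaged 1.58 CPM in ish2 with Dox and 0.944 CPM without, and 0.546 CPM in ish with Dox and 1.04 CPM without. The part of CDKN1A and of the marker genes in the fall of the mitosis genes was not tested.

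Some counts carry a limit from gene overlap. On GENCODE, exons of FOXM1, CCNA2, CDC25C, PLK1, NUF2, KIF20A, HMMR, PRC1 and ANLN overlap a gene on the other strand that the count table also holds, and the strand setting of the counting was not stated in the sources used here. CENPA shares exon bases with SLC35F6 on the same strand, also in the table. Reads in these stretches could have been left out or given to the partner, so the levels of these genes are less certain. The partners of BUB1B, NUSAP1, KIF2C and KIF23 have no row in the table. PRC1 and PLK1 each overlap a further gene that has no row. For PRC1 this is a protein-coding gene on the same strand that shares 3181 exon bases, the largest overlap found. The processed pseudogenes of AURKA, BUB1, BUB3, CCNB2, CDC20, CKAP2, DLGAP5, MKI67 and UBE2C have no row either, and their reads may still have aligned to more than 1 place.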

How the data were processed

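The deposited table holds raw counts per gene symbol for 12 libraries, not normalized by the authors. Per the labels' protocols, the libraries were stranded and read from both ends with a 75-base kit. GRCh38, Subread 1.6.3 with featureCounts, STAR 2.7.3a and Trim Galore 0.6.4 appear in the submitters' processing notes, without roles. Groups came from titles and column headers, and Sh1 in the headers was taken as ish. The 5 rows of unassigned reads, 20.96% to 24.44% of reads per library, were left out of library sizes and tests.

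filterByExpr kept 15206 genes and left out 11279. One edgeR 4.0.16 quasi-likelihood fit (TMM, robust, R 4.3.3) of 4 group means gave each Dox effect, their difference and the lines without Dox. Calls are at an adjusted p under 0.05 (Benjamini-Hochberg over all genes tested). The biological coefficient of variation was 2.44%, so small folds pass. SE is the absolute log2 fold change over the square root of F, an approximation. NT5E was also tested by exact permutation of log2 CPM with a pseudocount of 0.5. Scripts were tested on simulated counts. DESeq2 1.42.0, other scalings and filters, a replicate block and leaving out each library were alternatives.

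The 36 genes and the other lists were chosen with earlier results of these data known, so counts over a list are descriptions without a list test. By the rule for named genes, each role shows the genes with the smallest p in ish, in ish2 and for the difference, and any gene not called in a construct. Other lists show up to 3 genes by the same p-values, and the rule also names NT5E and CDKN1A. MKI67 and MYOG were added after their values were seen. All 235 list entries matched a symbol, 3 of them an older one (SGOL1, SGOL2 and CASC5). Positions and exon lengths are from GENCODE on GRCh38, and promoters from RefSeq on GRCh38.p14.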

Additional observations from a re-analysis of the deposited data

Results flagged for a closer look

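The constructs differed in their Dox effect for 35 of the 36 mitosis and G2/M genes by the test of the difference itself (effect in ish2 minus effect in ish on the log2 scale, edgeR adjusted p under 0.05), beside 72.6% of all genes tested. A positive value means that the gene fell more in ish. FOXM1 differed by 0.14. Among the Ki-67 and topoisomerase genes, the difference was -0.24 for MKI67 and 0.90 for TOP2A. Among the cyclins, CDK1 and its activator, the difference was 0.76 for CCNA2, 0.62 for CCNB1, 1.61 for CCNB2, 0.61 for CDK1 and 1.16 for CDC25C. Among the mitotic kinases, the difference was 0.91 for PLK1, 0.73 for AURKB, 0.67 for TTK, 1.20 for BUB1 and 0.51 for BUB1B. Among the kinetochore, centromere and checkpoint genes, the difference was 0.18 for BUB3, 0.87 for CENPA, 0.92 for CENPE, 0.62 for CENPF, 1.24 for NUF2 and 0.61 for NDC80. Among the spindle motors and microtubule-associated proteins, the difference was 0.10 for TPX2, 0.45 for KIF11, 0.49 for KIF20A, 0.59 for KIF2C, 0.19 for NUSAP1, 0.77 for DLGAP5, 1.41 for HMMR and 0.17 for CKAP2. Among the anaphase promotion genes, the difference was 0.74 for CDC20, 0.54 for UBE2C and 0.94 for PTTG1. Among the midzone and cytokinesis genes, the difference was 0.26 for KIF23, 0.81 for PRC1, 1.03 for BIRC5, 0.56 for ANLN and 0.88 for ECT2. MKI67 was the 1 gene with a negative value that passed the test.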

How the results depend on the processing

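All 36 genes stayed lower in ish under each of the 19 settings, and 32 or 33 in ish2. Without replicate 2 of ish2 with Dox, ECT2 was also called lower in ish2 (log2 fold change -0.08). BUB1 and BUB3, which were not called in ish2, changed sign there. BUB1 stood at -0.0026 without replicate 2 of ish2 with Dox and at -0.0055 without replicate 2 of ish2 without Dox. BUB3 stood at -0.0006 in a fit of the 6 ish2 libraries alone, and at -0.0256 without replicate 2 of ish2 with Dox. It stood at -0.0180 and -0.0063 without replicates 1 and 2 of ish2 without Dox. Leaving out replicate 1, 2 or 3 of ish with Dox gave -0.0005, -0.0004 and -0.0004, and leaving out the same replicates of ish without Dox gave -0.0004, -0.0006 and -0.0018. With 1 library left out, their highest values were 0.0736 for BUB1 and 0.0129 for BUB3, both without replicate 3 of ish2 without Dox. The cause was not tested.

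Genes of the 36 called for the difference numbered 34 to 36: TPX2 was lost in 7 settings (adjusted p 0.0508 to 0.101) and AURKA gained in 6. Genes called without Dox numbered 15, with a range of 6 to 16 when 1 library was left out and 11 to 18 in the other settings. The difference could not be fitted on 6 libraries of 1 construct. Residuals of like-numbered libraries with and without Dox were at most weakly correlated within a construct (-0.104 to 0.0324). Unlike-numbered libraries were not compared, so this cannot show whether replicate numbers pair the libraries. With the replicate block, 32 genes were called in ish2, 36 in ish, 35 for the difference and 11 without Dox, where PTTG1 lost its call (adjusted p 0.0523). NT5E ranged from -0.72 to -0.66 in ish2 and from -3.59 to -3.28 in ish. Counts called in each of the 8 other lists stayed within 1.5 times the main count under every setting. DESeq2's Wald test did not call MAD2L1 (adjusted p 0.135) or E2F3 (0.0672) in ish2, nor PTTG1 without Dox (0.107). No gene of the 36 had under 243 reads in a library, and each group has 3 libraries.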
